A study of Mus musculus with 4 samples.

Results

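The Lce3 and Crct1 cluster is a run of small genes in the mouse epidermal differentiation complex (EDC), and its chromatin contacts in keratinocytes and thymocytes are described here. The cluster was taken as every restriction fragment whose midpoint lies at 92.720 to 92.830 Mb of chromosome 3 (mm9), a window that starts at the average keratinocyte border given by the study between its topologically associating domains TAD3 and TAD4. The 25 fragments of the window, 12 forward and 13 reverse, were among 712 fragments in the 4 tables. They took part in 7912 of the 111588 contacts listed in at least 1 library, and in 1974 of the 23395 contacts listed in all 4 libraries. Comparisons between cell types were made on these 1974 contacts, of which 999 led upstream (towards lower coordinates, across the border into TAD3), 911 led downstream and 64 joined fragments of the window to each other.

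The EDC holds genes for the proteins that cornifying epidermal cells cross-link under their membrane. The late cornified envelope (Lce) genes encode short proteins that are added to this envelope late in differentiation, and Crct1 encodes a small cysteine-rich protein from the same gene neighbourhood. A topologically associating domain is a stretch of chromatin whose fragments meet each other more often than they meet fragments beyond its borders.

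The 5C method (chromosome conformation capture carbon copy) counts ligated pairs of a forward and a reverse probe, each placed at the end of a HindIII fragment. There were 2 libraries of primary epidermal keratinocytes from newborn C57BL/6 mice, plated for some hours on collagen in low-calcium medium. A further 2 libraries were of primary thymocytes from C57BL/6 mice, whose age the methods of the study do not state. The study took thymocytes as cells in which the keratinocyte genes of the EDC are inactive. No genotype or drug treatment set the groups apart, and both received the same formaldehyde fixation. The labels do not say which animals were pooled in a library, so the p-values below measure the spread between libraries. The 5C tables hold no expression values, so neither cell type could be checked against its marker genes. In bulk libraries, a contact made in more cells and a contact made more often in each cell cannot be told apart.

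Each listed contact has a corrected 5C frequency and an expected frequency, which comes from contacts of like genomic distance. It also has a Z score, the excess of the former over the latter in units of the standard deviation for that distance. A Z score above 0 thus marks a contact more frequent than expected at its distance in the same library. Contacts listed in all 4 libraries lay above 0 on average over the whole locus, at 0.51, 0.58, 0.61 and 0.70 in keratinocyte libraries 1 and 2 and thymocyte libraries 1 and 2, so 0 is not their typical value. Keratinocyte libraries 1 and 2 listed 6697 and 4921 contacts of the window, and thymocyte libraries 1 and 2 listed 3929 and 4170. The number of reads behind a contact is unknown, so no counting error is given. Values for single libraries are given below in the order keratinocyte library 1, keratinocyte library 2, thymocyte library 1, thymocyte library 2.

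In their Z scores the libraries of a cell type did not resemble each other closely. The study reports a high correlation of raw counts between replicates, a different measure that was not examined here. Over the 1974 contacts, which share fragments and are not independent, the Z scores of keratinocyte libraries 1 and 2 had a Pearson correlation of 0.272, and those of thymocyte libraries 1 and 2 had one of 0.261. Keratinocyte library 2 correlated more closely with thymocyte library 1 (0.399) than with its own replicate. Results are therefore given library by library, and what changed without a single library is given in the closing section. With 2 libraries against 2, the smallest p that a two-sided exact permutation test can give is 0.333, so no difference between the cell types could pass a threshold of 0.05 in that test.

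The probes that carry the main contacts of the window are shown first, each as the 30 bases of genome that it targets, read 5′ to 3′, with the HindIII half-site in capitals. All 9 targets matched mm9 at their position, as did 737 of the 761 probes of the study's design. The first set holds the last fragment of the window (REV_985) and its 3 strongest keratinocyte partners, of which FOR_699 overlaps Lelp1, FOR_705 lies 8.6 kb from it and FOR_689 lies 12.5 kb from Prr9. The REV_985 target ends the fragment chr3:92827414-92832516, and the targets of FOR_689, FOR_699 and FOR_705 end chr3:91909400-91913659, chr3:91936375-91939767 and chr3:91955311-91960279.
REV_985: CTTcagattatgtgagtgacaataccattc
FOR_689: ttatttaaacaggaggaacaaacaataAAG
FOR_699: cctgctgactcatcctgttttctcgagAAG
FOR_705: taaactagaattttctatgtaatgagcAAG

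The second set holds the fragment over Crct1 (REV_981, chr3:92818140-92819630) and its 2 strong partners in the Sprr2 genes, FOR_796 (chr3:92167365-92174697) and FOR_805 (chr3:92214219-92217726). These contacts had high Z scores in both cell types.
REV_981: CTTctctggccatacactgttcagtcttct
FOR_796: cctaggtctctccataccctctgtattAAG
FOR_805: tctgtgctaataagctactgcaagtagAAG

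The third set marks the Lce3 genes themselves, with the fragment over Lce3f (REV_972, chr3:92796747-92806202) and the fragment next to Lce3d (FOR_958, chr3:92758725-92760869).
REV_972: CTTaagttaaattcaggttcaaatatattt
FOR_958: aaggttcacatcaaaggcaatgcactaAAG

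Both keratinocyte libraries scored lower than both thymocyte libraries in the contacts of the window with the chromatin just downstream of it. Over the 403 downstream contacts of up to 500 kb, the mean Z score was -0.40, -0.25, 0.02 and 0.28. Both keratinocyte libraries lay below 0 and below both thymocyte libraries. The means were -0.32 ± 0.10 in keratinocytes and 0.15 ± 0.18 in thymocytes (SD, n = 2 libraries each), a difference of -0.48 with an exact permutation p of 0.333, the smallest possible. Leaving out any 1 library kept this difference between -0.61 and -0.35.

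The share of these downstream contacts with a Z score above 0 was 28.8%, 37.0%, 52.4% and 61.8%. The median corrected frequency was 320.2, 204.4, 159.1 and 174.3, against a median expected frequency of 443.2, 238.0, 166.3 and 160.3. The observed median thus fell short of the expected one in 3 libraries, by most in keratinocyte library 1, and exceeded it in thymocyte library 2. Frequencies were not scaled to a common total, so their levels are compared within a library only.

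In the keratinocyte libraries the upstream contacts, which cross the TAD3/TAD4 border, lay closer to expectation by their mean Z score. In both thymocyte libraries the downstream mean was the closer one. The mean Z score of the 299 upstream contacts of up to 500 kb was 0.19, 0.14, 0.30 and 0.55. The keratinocyte libraries again lay below the thymocyte libraries, with means of 0.17 ± 0.04 and 0.42 ± 0.18 (SD, n = 2 each; exact permutation p = 0.333). The difference of -0.26 became -0.39 without thymocyte library 1 and -0.13 without thymocyte library 2. The median frequency upstream was 355.1, 192.7, 131.5 and 143.5, against 346.4, 181.7, 131.0 and 125.0 expected.

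Subtracting the upstream from the downstream mean within each library gave -0.59, -0.39, -0.27 and -0.27. By the mean, the window therefore scored lower downstream than across the border in all 4 libraries. The downstream side lies inside the domain that the keratinocyte borders assign the window to. An exact sign-flip permutation test over the 4 libraries gave p = 0.125, the smallest possible. The deficit was larger in both keratinocyte libraries than in either thymocyte library, by 0.22 on average (keratinocytes minus thymocytes -0.22, exact permutation p = 0.333). Without keratinocyte library 1 this difference was -0.12. On the log2 scale of observed over expected frequency the same subtraction gave -0.39, -0.22, -0.07 and -0.07. With medians of the Z score over contacts it gave -0.44, -0.30, 0.03 and 0.01, so neither thymocyte library was then lower downstream. Within 100 kb bins of equal distance, thymocyte library 2 ranged from -0.76 at 400 to 500 kb to 0.18 at 100 to 200 kb. Only keratinocyte library 2 was lower downstream in every such bin.

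The sign of the asymmetry depended on the scale in 3 libraries. The log2 corrected frequency, with no allowance for distance, was lower downstream only in keratinocyte library 1, with downstream minus upstream values of -0.19, 0.04, 0.21 and 0.22. The log2 expected frequency was higher downstream in every library, by 0.20, 0.25, 0.28 and 0.29, since the downstream partners lay nearer. On both scales the keratinocyte libraries stood below the thymocyte libraries.

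**Figure D1:**
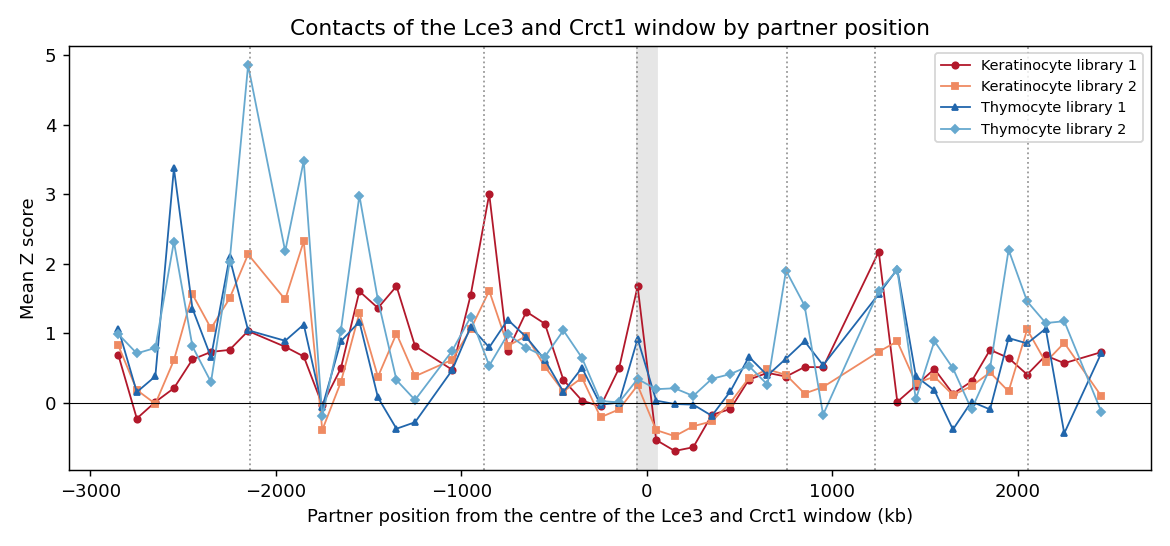
Mean Z score (vertical axis) of the window's contacts in each library by the position of the partner fragment in kb from the window centre (horizontal axis, bins of 100 kb), with the window shaded and the keratinocyte TAD borders dotted. In the bin centred 150 kb downstream the keratinocyte libraries lie at -0.69 and -0.48 and the thymocyte libraries at -0.01 and 0.21, and in the bin centred 850 kb upstream they lie at 3.00 and 1.61 against 0.80 and 0.54.

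The label of the window as lying past the TAD3/TAD4 border was checked against the contacts that cross each position. For every 10 kb the Z scores of contacts whose fragments lie on both sides of the position, each within 250 kb of it, were averaged, so that a border appears as a low. In the keratinocyte libraries the lowest means, -0.66 over 302 contacts and -0.30 over 309, lay at 92.885 and 92.895 Mb, past the downstream end of the window. Thymocyte library 1 also had its lowest mean at 92.895 Mb, at 0.10. Thymocyte library 2 had its lowest mean of 0.245 at 92.675 Mb, before the window, but was almost as low at 92.885 Mb, with 0.254. In this measure the lowest crossing Z score in 3 of 4 libraries was therefore on the far side of Crct1 and Lce1m. The mean log2 corrected frequency of the same contacts makes no allowance for distance. It was lowest 80 kb before the window centre, ahead of the window, in each library, at 8.13, 7.42, 7.02 and 7.14. In 3 libraries the scales thus placed the low on opposite sides of the window, and which of them marks the border was not tested. The window is called here by its genes and not by a domain.

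**Figure D2:**
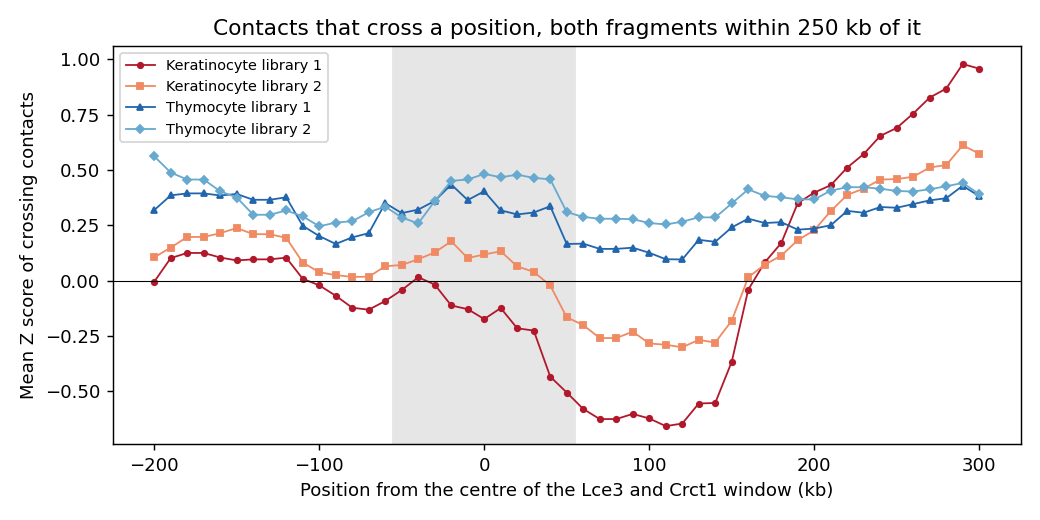
Mean Z score (vertical axis) of the contacts that cross each position, by position in kb from the window centre (horizontal axis), 1 line per library, with the window shaded. Both keratinocyte lines fall past the window centre to their lows of -0.66 and -0.30 at 110 and 120 kb and lie above 0 from 170 kb, while both thymocyte lines stay above 0.

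Windows of the same width on either side showed other asymmetries. The window before the cluster had downstream minus upstream Z scores of -0.21, 0.04, 0.12 and -0.33, with no common sign. The window past the cluster had 1.34, 0.95, 0.55 and 0.25, positive in every library and higher in both keratinocyte libraries. The cluster lay below the window past it in 4 of 4 libraries, by 1.15 on average, with an exact sign-flip permutation p of 0.125 (0.25 after Benjamini-Hochberg adjustment over the 2 windows). It lay below the window before it by 0.28 on average, in 3 of 4 libraries (exact p = 0.25). The lower keratinocyte Z score itself was also seen next to the cluster. Keratinocytes minus thymocytes was -0.36 upstream and -0.34 downstream for the window before it, and -0.39 upstream for the window past it, without overlap of the libraries. Downstream of the window past it the difference was 0.36. Contacts between the cluster and the window past it enter both sides of the comparison of these windows.

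At the ends of the window the fragments REV_985 (inside, by its midpoint) and FOR_986 (the first outside) both leaned upstream in keratinocytes. For FOR_986, chr3:92832517-92845937, the mean Z score up to 500 kb was 0.74, 0.94, 0.51 and 0.09 upstream and -0.48, -0.02, 0.71 and 0.05 downstream. The fragment just before the window, FOR_945, had upstream means of 0.19, 0.33, 0.65 and 0.13 and downstream means of 0.47, 0.46, 0.86 and 0.88. It thus leaned downstream in all 4 libraries.

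Up to 500 kb downstream, the keratinocyte libraries lay farthest below the thymocyte libraries within 300 kb. In the first 100 kb the mean Z score of 21 contacts was -0.68, -0.59, -0.29 and 0.16. At 100 to 200 kb downstream the mean Z score of 147 contacts was -0.69, -0.45, -0.08 and 0.17, and at 200 to 300 kb that of 51 contacts was -0.64, -0.29, 0.29 and 0.21. At 300 to 400 kb the libraries overlapped, with -0.05, -0.08, -0.07 and 0.55 over 85 contacts. Both keratinocyte libraries lay below both thymocyte libraries in each of the 3 bins up to 300 kb, and again at 400 to 500 kb, with -0.06, -0.01, 0.19 and 0.28 over 99 contacts.

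In several bins far upstream the order was the other way round. The mean Z score of 73 contacts at 800 to 900 kb was 2.07, 1.28, 0.89 and 0.59, and that of 80 contacts at 900 to 1000 kb was 2.04, 1.32, 1.12 and 0.98. At 600 to 700 kb it was 1.63, 1.07, 0.98 and 0.87 over 48 contacts. Keratinocytes lay above thymocytes in these 3 bins, the farther 2 of which reach the start of TAD3 and loricrin, and the order was the same without REV_985 (at 800 to 900 kb 1.92, 1.10, 0.90 and 0.62). At 700 to 800 kb, with 17 contacts, the libraries overlapped, and at 1000 to 1100 kb keratinocytes were again lower, with 0.33, 0.48, 0.67 and 1.31 over 40 contacts.

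**Figure D3:**
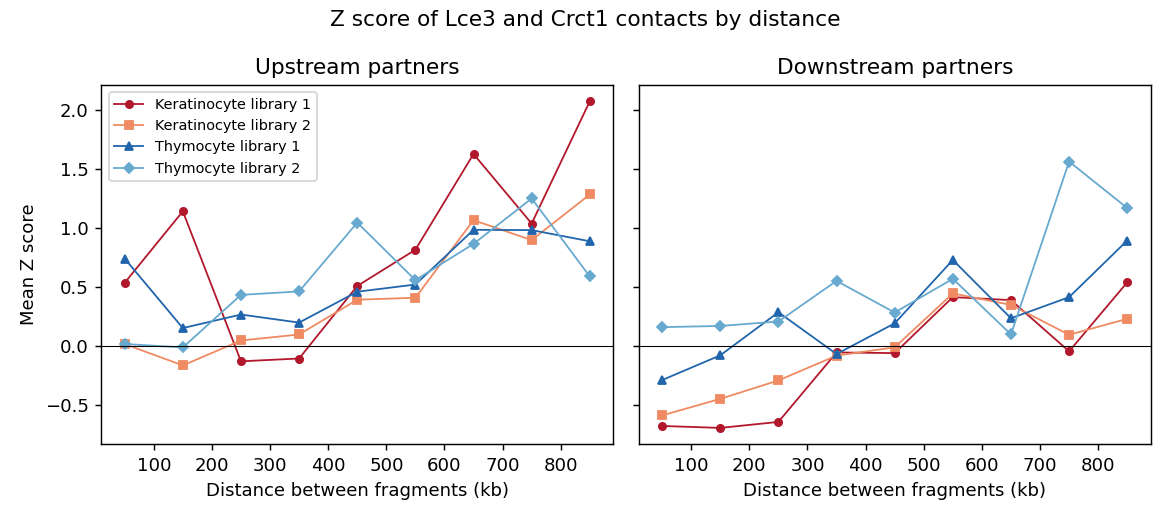
Mean Z score (vertical axis) of upstream and downstream contacts in bins of 100 kb of distance between fragments (horizontal axis, kb), 1 line per library. Downstream of up to 300 kb the keratinocyte lines lie below the thymocyte lines (-0.69 and -0.45 against -0.08 and 0.17 at 100 to 200 kb), and upstream at 800 to 900 kb they lie above them (2.07 and 1.28 against 0.89 and 0.59).

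The order of the libraries was also counted contact by contact. Across all 23395 contacts of the locus, both keratinocyte Z scores lay below both thymocyte Z scores in 19.1% and above them in 21.1%. Of the window's 1974 contacts, 452 (22.9%) lay below and 351 (17.8%) above. Among the 403 downstream contacts of up to 500 kb, 164 (40.7%) lay below and 18 (4.47%) above, and among the 299 upstream contacts 71 (23.7%) lay below and 30 (10.0%) above. Over all distances the 911 downstream contacts had 264 (29.0%) below and 134 (14.7%) above, and the 999 upstream contacts had the opposite balance, with 174 (17.4%) below and 211 (21.1%) above. Among these sets, the downstream contacts of up to 500 kb were thus farthest from the shares over the whole locus. Those shares cover all distances, and the shares of the locus up to 500 kb were not computed.

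No single contact passed a test. The limma test across all 23395 contacts called 0 at an adjusted p under 0.05, and 0 among the window's 1974 contacts, whose lowest adjusted p was 0.767. At an unadjusted p under 0.05 limma counted 99 of the 1974 (5.02%), 53 higher and 46 lower in keratinocytes, against 5.11% over the locus. This balance rested on single libraries, with 77 higher and 23 lower without keratinocyte library 1, and 17 higher and 124 lower without thymocyte library 1. Without keratinocyte library 2 the count rose to 344, 189 higher and 155 lower. The median difference in Z score, keratinocytes minus thymocytes, was -0.32 over all 911 downstream contacts and -0.02 over the 999 upstream contacts.

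The asymmetry differed between the fragments of the window. Of the 25 fragments, 21 had a contact listed in all 4 libraries and 8 had fewer than 20, and 17 had at least 10 contacts to each side within 500 kb. Among these 17 the downstream mean lay below the upstream mean in 17, 15, 12 and 8 fragments of the respective library, and in all 4 libraries in 6. The difference was lower in both keratinocyte libraries than in both thymocyte libraries for 7 fragments and higher for 0. For the downstream mean alone, 12 fragments had keratinocytes below thymocytes and 0 above, and for the upstream mean 8 and 1. The fragments share partners and libraries, so they are not replicates.

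**Figure D4:**
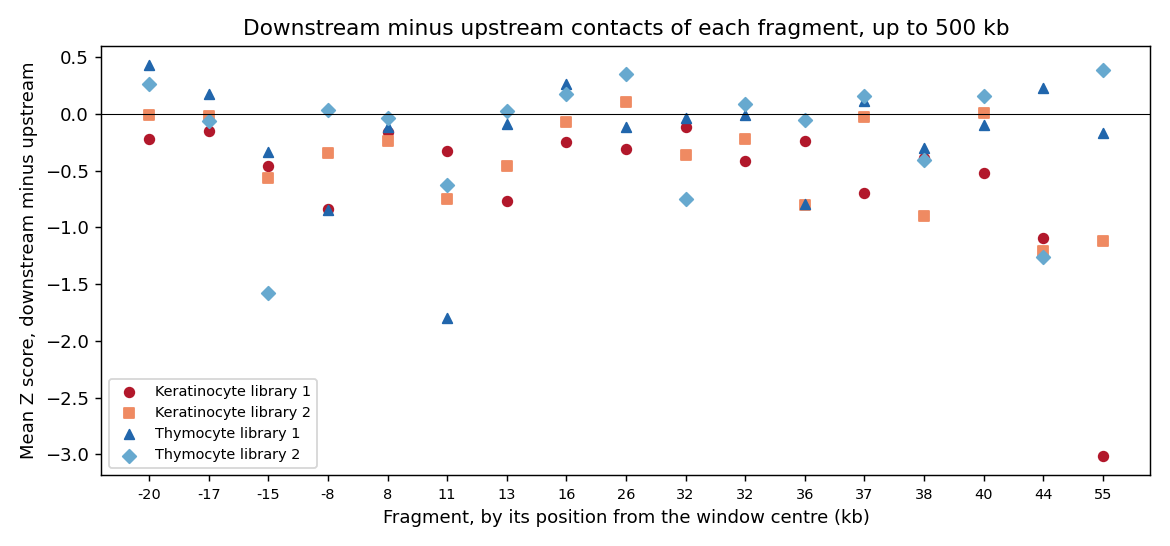
Downstream minus upstream mean Z score (vertical axis) of contacts up to 500 kb for the 17 fragments with at least 10 contacts to each side, placed in order of their position in kb from the window centre (horizontal axis), 1 point per library. Keratinocyte library 1 lies below 0 in all 17 fragments, with its lowest value of -3.01 at the last fragment, and thymocyte library 2 lies below 0 in 8.

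Gene by gene, the window holds Lce3a (chr3:92729213-92730152), Lce3b (chr3:92736901-92738020), Lce3c (chr3:92748408-92749652), Lce3d (chr3:92761980-92762353), Lce3e (chr3:92771899-92772201), Lce3f (chr3:92796148-92797347), Crct1 (chr3:92818127-92819609) and Lce1m (chr3:92821729-92822982). Gene positions are those of the GENCODE annotation of mm9, which names Lce3d as Gm9782 and Lce3e as 2310001H18Rik. Lce3a, Crct1 and Lce1m lie on the minus strand and the other genes on the plus strand. The start of the cluster was poorly covered. Both fragments over Lce3a had no contact listed in all 4 libraries, the nearest fragment to Lce3b lay 6.34 kb away, and the fragment next to Lce3c had 3 such contacts. Nothing is therefore compared for Lce3a, Lce3b and Lce3c.

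Lce3d, a late cornified envelope gene, was represented by the adjacent fragment FOR_958 with 132 contacts. Its downstream mean Z score up to 500 kb was -0.63, -1.003, 0.01 and 0.10, and its upstream mean was -0.17, -0.44, 0.35 and 1.68. Keratinocytes lay below thymocytes on both sides of this gene (exact permutation p = 0.333 for each). Upstream the libraries overlapped with all contacts that each library lists (0.20, 0.48, 0.41 and 1.42) and with medians (0.02, -1.16, -0.36 and 0.44). Lce3e, the next Lce3 gene, was represented by REV_961 with 129 contacts. Its downstream mean was -0.29, -0.15, 0.27 and 0.19, again lower in keratinocytes, while its upstream means of 0.55, 0.20, 1.12 and 0.16 overlapped.

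Lce3f, the last Lce3 gene, lies in part on fragment REV_972, which had 91 contacts. Its downstream mean was -0.68, -0.02, 0.01 and 0.42, and its upstream mean was -0.37, -0.12, 0.13 and 0.07. The keratinocyte libraries lay below the thymocyte libraries on both sides, although keratinocyte library 2 and thymocyte library 1 lay close together downstream. With all contacts that each library lists, the upstream difference of Lce3f turned to 0.19.

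At Crct1 the cell types overlapped downstream as well as upstream, whereas the 3 measured Lce3 genes had lower keratinocyte values downstream. The difference between the genes was not tested. Over its 2 fragments and 150 contacts the downstream mean was -0.49, -0.62, -0.64 and 0.03, and the upstream mean was 0.42, 0.47, -0.99 and 1.24. In 3 libraries, among them thymocyte library 1, the downstream mean was thus well below 0, and the cell types overlapped on both sides. With all contacts that each library lists, the downstream mean of Crct1 was -0.65, -0.60, -0.46 and -0.37. Keratinocytes then lay below thymocytes downstream without overlap, so the contrast with the Lce3 genes depended on the contacts used. Lce1m, the Lce1 gene on the far side of Crct1, had 10 contacts in all 4 libraries, too few to divide by side.

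Among the 7 domains of the locus, the window had its lowest mean with TAD4 in all 4 libraries. The mean Z score with TAD4 was -0.20, -0.09, 0.16 and 0.32 over 534 contacts, and with TAD3 it was 0.73, 0.47, 0.51 and 0.63 over 503 contacts. In all 4 libraries the window thus scored higher with TAD3 than with TAD4. With medians over contacts the gap was small in thymocytes, at 0.21 against 0.13 in library 1 and 0.24 against 0.22 in library 2. TAD4 then had the lowest value in the keratinocyte libraries only. With TAD2, a gene-poor domain between the S100 genes and loricrin, the mean was 1.14, 0.92, 0.74 and 1.32 over 234 contacts.

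The cell types separated for 3 of the 7 domains. Besides TAD4, keratinocytes lay below thymocytes for TAD1 (0.44, 0.92, 1.30 and 1.12 over 262 contacts) and for the gene-poor TAD5 (0.46, 0.22, 0.70 and 1.21 over 28 contacts). The order for TAD1 rested on means, and with medians over contacts the difference was 0.20. For TAD2, TAD3, TAD6 and TAD7 the libraries overlapped. None of the differences passed (exact permutation p = 0.333 for each of the 3, Benjamini-Hochberg adjusted p = 0.778 over the 7 domains).

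The putative enhancers of the study were defined in keratinocytes from histone marks, and a contact was assigned to one when its partner fragment lay within 10 kb. E9, the nearest of them, lies downstream in TAD4, and it had the most contacts with the window. Over 68 contacts of 17 fragments the mean Z score with E9 was -0.80, -0.46, -0.10 and 0.09. The median corrected frequency was 348.7, 279.2, 268.3 and 272.5 against 599.2, 350.8, 272.0 and 273.3 expected. Both thymocyte medians lay close to expectation and both keratinocyte medians lay well below it. Both keratinocyte Z scores lay below both thymocyte Z scores in 33 of the 68 contacts (48.5%) and above in 2 (2.94%). Of the 17 fragments, 12 had a lower keratinocyte mean while 0 had a higher one. Over all downstream contacts of up to 500 kb, which include those with E9, the shares were 40.7% and 4.47%. The fragment counts there were also 12 and 0 of 17. Over the locus, at all distances, the shares were 19.1% below and 21.1% above.

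The other enhancers differed in order and level. The cluster E4-E7 in TAD1, among the S100 genes, had means of 0.77, 1.18, 0.31 and 0.76 over 23 contacts, and E13 in TAD6 had 0.63, 0.69, -0.39 and -0.06 over 16. Keratinocytes lay above thymocytes for these 2 and below for E9 and for E1, which had 7 contacts at -0.46, 0.02, 0.18 and 0.22. For the cluster E2/E3 the means were 1.18, 3.16, 1.16 and 1.24 over 21 contacts, with keratinocyte library 2 far above the other 3. The order for E4-E7 turned when every contact a library lists was used (difference -0.22), and that for E1 turned with partners within 20 kb (0.23). The libraries overlapped for E2/E3, E8, E10, E11, E12, E14 and E15, and E16 had no contact listed in all 4 libraries. None of the 11 enhancers tested passed (exact permutation p of 0.333 at the lowest, 0.917 after Benjamini-Hochberg adjustment).

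The other gene groups of the complex differed in how they met the window. Loricrin (Lor), the main protein of the cornified envelope, lies on a single fragment, FOR_683 (chr3:91876919-91893349), which had contacts with 8 fragments of the window. Their mean Z score was 3.55, 1.52, 0.65 and -0.55. The median frequency of these contacts was 311.9, 99.5, 62.1 and 51.2 against 126.1, 72.6, 53.8 and 67.4 expected, so that the observed level exceeded the expected one in 3 libraries and by most in keratinocyte library 1. Of the 8 contacts, 4 had both keratinocyte libraries above both thymocyte libraries and 0 had them below. Over the locus 21.1% of contacts lay above and 19.1% below. Since the 8 contacts share the loricrin fragment, they are 1 measurement of that fragment rather than 8. Without the last fragment of the window, REV_985, the mean over the other 7 was 2.76, 1.35, 0.69 and -0.75.

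The thioesterase genes Them4 and Them5 in TAD6 showed the opposite order. The mean Z score of 13 contacts was 0.04, 1.77, 3.57 and 2.77, with 0 contacts higher and 6 lower in keratinocytes. Over the locus 21.1% of contacts were higher and 19.1% lower by this order of the libraries. Of the 13 contacts, 6 shared the partner REV_1415 (chr3:94152912-94155619), next to Them5, and 4 of the 6 lower ones were among them. The contact of REV_1415 with FOR_976, a fragment near Crct1, had Z scores of -0.36, 1.59, 22.60 and 4.54. Involucrin (Ivl), an early cornified envelope protein, also had a lower mean in keratinocytes, at 0.47, 1.64, 1.66 and 2.26 over 11 contacts, of which 1 was higher and 3 were lower.

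The Lce1 and filaggrin-like groups were both lower in keratinocytes. The Lce1 genes upstream had means of -0.16, -0.02, 0.14 and 0.32 over 152 contacts. The filaggrin-like genes downstream, from cornulin (Crnn) and filaggrin (Flg) to trichohyalin (Tchh), had -0.46, -0.19, 0.06 and 0.35 over 134 contacts. The share of filaggrin-like contacts above the expected frequency was 29.1%, 43.3%, 56.0% and 64.2%. Both groups thus crossed 0 between the cell types.

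The small proline-rich (Sprr) genes, further cornified envelope precursors, had means of 1.17, 0.68, 0.77 and 0.71 over 107 contacts, and the cell types overlapped. The S100 genes, for calcium-binding proteins, had 0.82, 2.23, 0.93 and 1.07 at the 5-prime end of the complex (57 contacts, overlapping) and 0.40, 0.48, 0.83 and 0.54 at its 3-prime end (50 contacts, lower in keratinocytes). The Tdpoz genes had 0.99, 0.74, 1.93 and 1.33 over 11 contacts, lower in keratinocytes by the mean but not by the median (difference 0.35), and Kprp with its neighbour 2310050C09Rik had 6 contacts that overlapped. In all, 1 of the 10 groups was higher in keratinocytes, 6 were lower and 3 overlapped, and none passed (exact permutation p = 0.333 for each of the 7, adjusted p = 0.476 over the 10 groups).

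**Figure D5:**
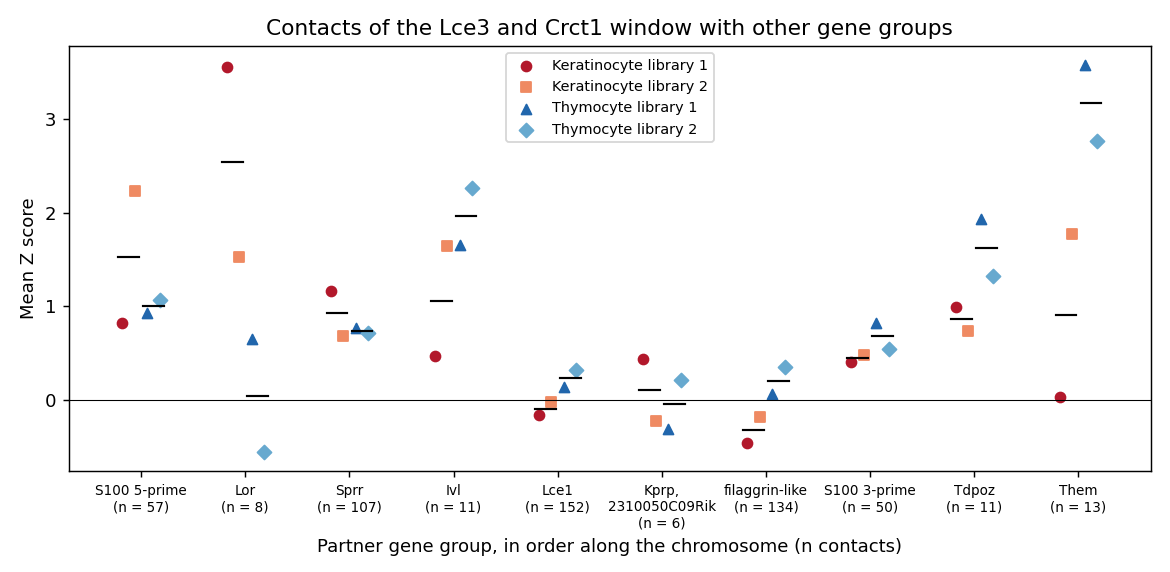
Mean Z score (vertical axis) of the window's contacts with 10 other gene groups in order along the chromosome (horizontal axis, with the number of contacts), 1 point per library and a bar at the mean of each cell type. Lor is the group with the keratinocyte libraries on top (3.55 and 1.52 against 0.65 and -0.55) without overlap, and Them shows the widest opposite separation (0.04 and 1.77 against 3.57 and 2.77).

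Contacts were counted as called in a cell type when each of its libraries gave them a deposited q-value under 0.05. In keratinocytes they were 80 of 4298 contacts listed in both libraries (1.86%), where the whole locus had 1.99%. In thymocytes they were 114 of 2753 (4.14%), where the whole locus had 4.03%. Both shares were thus close to those of the locus. In the window 10 contacts were called in both cell types, and 45 of the 80 keratinocyte calls and 41 of the 114 thymocyte calls were not listed in both libraries of the other cell type.

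Few of these calls were near the window. Up to 500 kb keratinocytes had 2 of 463 upstream contacts (0.43%) and 2 of 568 downstream contacts (0.35%) called. Thymocytes had 10 of 396 (2.5%) and 13 of 583 (2.2%). Over all distances the whole locus had 1.99% called in keratinocytes and 4.03% in thymocytes. In keratinocytes 57 calls led upstream, 23 downstream and 0 stayed within the window, and in thymocytes 61, 49 and 4. With TAD4 keratinocytes had 5 of 817 contacts called and thymocytes 21 of 763. The shares of the locus at these distances or by domain were not computed, so these counts are not read as a trait of the window. The difference between the cell types in them was not tested.

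The strongest contacts of the window in keratinocytes joined its last fragment, REV_985, to the start of TAD3. REV_985 lies past Lce1m. With FOR_699, the fragment over Lelp1, a late cornified envelope-like proline-rich gene, its Z score was 10.26, 9.30, 0.06 and -1.87. The corrected frequency was 875.3, 417.8, 58.8 and 11.1 against 130.7, 75.3, 57.5 and 67.4 expected. Both keratinocyte libraries thus lay several times above expectation at a distance of 891.9 kb, and the thymocyte libraries at or below it.

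The neighbouring fragments gave the same picture in keratinocytes. With FOR_705 the Z scores were 10.59, 8.46, 1.02 and 1.27, and with FOR_689, which lies 12.5 kb from Prr9, they were 11.23, 6.28, 4.98 and 0.12. The latter was also raised in thymocyte library 1. These 3 partners span chr3:91909400-91960279.

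REV_985 stood apart from the other fragments of the window towards TAD3. Its mean Z score with TAD3 was 3.59, 1.70, 0.80 and 0.26 over 32 contacts, while the other fragments had 0.54, 0.38, 0.49 and 0.66 over 471. REV_985 thus had keratinocytes above thymocytes, and the rest of the window overlapped. Upstream within 500 kb REV_985 had 2.93, 1.10, 0.58 and 0.29 over 14 contacts, and the other fragments had 0.06, 0.09, 0.28 and 0.57 over 285. Downstream it had -0.09, -0.02, 0.42 and 0.68 over 25 contacts, with keratinocytes lower as in the other fragments (-0.42, -0.27, -0.00 and 0.26 over 378). Without REV_985, a choice made after seeing the data, the downstream minus upstream value of the window was -0.48, -0.36, -0.28 and -0.31, and its difference between the cell types fell from -0.22 to -0.12.

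Other strong contacts joined the Crct1 fragment REV_981 to the Sprr2 genes in both cell types. With FOR_805, which lies 1.0 kb from Sprr2i, the Z score was 7.68, 11.20, 9.33 and 5.46, and the frequency was 944.3, 715.2, 449.3 and 265.9 against 201.6, 116.7, 96.6 and 86.0 expected. With FOR_796, over Sprr2f, the Z score was 2.94, 11.03, 14.87 and 12.70. All 4 libraries lay above expectation in both contacts, which were separated by 602.9 and 647.9 kb. The Sprr2 genes are close relatives of each other, and whether near-identical sequence affected these probes was not tested.

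Contacts with the TAD1 enhancers varied between replicates. FOR_965, between Lce3e and Lce3f, met REV_132 at the cluster E2/E3, over S100a14, with Z scores of 2.69, 13.98, 6.94 and -0.35. The Crct1 fragment REV_981 met FOR_130, at the same cluster and over S100a13, with 3.34, 4.21, 1.40 and -0.88. Both contacts were called in keratinocytes, and in each the thymocyte libraries lay far apart.

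The contacts highest in thymocytes also involved fragments near Lce3f and Crct1. FOR_973, near Lce3f, met REV_665 over Pglyrp3, a gene for a peptidoglycan recognition protein in TAD2, with Z scores of 4.54, 3.47, 19.22 and 15.07. REV_981 met FOR_1570, in TAD6, with 0.21, 5.06, 19.64 and 10.55. FOR_976 met REV_100 over Npr1, which encodes a natriuretic peptide receptor, with -0.59, -1.28, 25.71 and -0.19, so that this value rests on thymocyte library 1 alone. In the other direction, REV_966 met FOR_1598 over Pi4kb, a lipid kinase gene at enhancer E14, with 0.71, 13.68, -0.16 and -1.13, and this value rests on keratinocyte library 2 alone.

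Within the window the cell types did not separate. The mean Z score of the 64 contacts was 0.19, -0.24, -0.27 and 0.27, with means of -0.03 ± 0.30 in keratinocytes and -0.00 ± 0.38 in thymocytes (SD, n = 2 each; exact permutation p = 1). The 2 libraries of a cell type differed more from each other than the cell types did. Over all 1974 contacts the mean Z score was 0.43, 0.41, 0.51 and 0.77, lower in both keratinocyte libraries, with a difference of -0.22 (exact permutation p = 0.333), which was -0.35 without thymocyte library 1 and -0.09 without thymocyte library 2. The keratinocyte libraries also had the lower means over all 23395 contacts of the locus, as given above, and whether the difference in the window exceeded that of the locus was not tested.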

How the data were processed

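5C libraries of 2 keratinocyte and 2 thymocyte samples were analysed. The submitters' processing notes name Bowtie and mm9, and the reads were aligned to the probe sequences, with the Bowtie version not given in the sources used here. The authors dropped probes and isolated contacts with outlying signal, then corrected for the coverage of each probe. The deposited signal is the resulting 5C frequency of a contact, given with an expected frequency and a standard deviation that a Loess fit on distance supplied for each library. The deposited score is the Z score, which recomputation from these columns gave again for each contact. The deposited p-value and q-value come from the authors' Weibull fit to the Z scores of each library, and the other deposited values are the distances between fragments. Raw counts were not used here, so the depth in reads is unknown. These steps leave each library on its own scale, so Z scores are compared between libraries and frequencies within them. Over the contacts of the locus listed in all 4 libraries, the Z scores had SDs of 1.75, 1.94, 2.33 and 2.49. They were thus spread more widely in both thymocyte libraries, and how far this enters the differences of means was not tested.

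The window, the gene groups and the tests were chosen with earlier results of these data known. Groups and replicate numbers came from the sample titles, and columns of other samples not used numbered 0. Fragments were placed by midpoint, TADs by the study's average keratinocyte borders and enhancers by its enhancer list (10 kb). Gene groups (5 kb) and the fragments of each gene used the gene positions listed by the study. A contact entered a comparison when all 4 libraries listed it. Library means of the Z score were compared by two-sided exact permutation tests with Benjamini-Hochberg adjustment within families of 7 domains, 11 enhancers and 10 gene groups, and downstream with upstream by an exact sign-flip test over 4 libraries. The test across contacts used limma 3.58.1 (lmFit, eBayes with trend) in R 4.3.3, tested on simulated data. Other steps used Python 3.11.15, pandas 2.3.3 and NumPy 2.4.6.

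The contacts named were, by rule, those called in both libraries of a cell type at an enhancer, the 5 of highest mean Z score in each cell type, and the 5 with the largest difference each way without overlap, and examples are given from each. The contacts of REV_985, FOR_945, FOR_986 and the loricrin and Them fragments were described after their values were seen. Probe targets were read from the probe list of the study and compared with the mm9 genome. The alternatives were medians, all listed contacts, other distances, other borders, other scales, other q-value thresholds, the replicate block, the window without REV_985, and leaving out each library.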

Additional observations from a re-analysis of the deposited data

Results flagged for a closer look

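For 3 of the 17 fragments with at least 10 contacts to each side, the downstream minus upstream Z score was below 0 in both keratinocyte libraries and above 0 in both thymocyte libraries. For FOR_955, between Lce3c and Lce3d, it was -0.23 and -0.01 in keratinocytes and 0.43 and 0.27 in thymocytes, a difference of -0.46. For REV_969 it was -0.25 and -0.07 against 0.26 and 0.18, a difference of -0.38. For REV_977, near Crct1, it was -0.70 and -0.03 against 0.12 and 0.15, a difference of -0.50. Each difference has an exact permutation p of 0.333, the smallest that 2 libraries against 2 allow, so none is shown to exceed the spread between libraries. In all 3 fragments keratinocyte library 2 lay within 0.07 of 0. Groups of 2 libraries are too small for a test of outlying libraries, and none was made.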

How the results depend on the processing

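The lower downstream Z score of keratinocytes, and the lower downstream minus upstream value, kept their direction under every alternative run for them, at -0.63 to -0.35 and at -0.53 to -0.12. The within-window difference changed sign, to 0.12 with medians and over -0.29 to 0.25 when 1 library was left out. The number of domains without overlap, 3 of 7, became 7 with all contacts each library lists. It became 4 to 6 when a library was left out, which leaves fewer values to overlap. With the average thymocyte borders it was 1, but these borders join TAD4 and TAD5, and neither was then counted. When a library was left out, 6 to 9 of 11 enhancers did not overlap in place of 4, and 12 to 17 gene values in place of 11. Keratinocyte calls numbered 51 at a q-value under 0.01 and 641 when either library sufficed, and thymocyte calls 510. Of the single items, TAD1 turned to 0.20 and Tdpoz to 0.35 with medians, E1 to 0.064 within 5 kb and 0.23 within 20 kb, E4-E7 to -0.22 with all listed contacts, Lce3f to 0.15 over all and 0.19 over upstream listed contacts, and Crct1 to 0.41 over all contacts with medians. Why was not tested. Of 365 values of single items under the alternatives, 47 changed sign, most of them in items whose libraries overlapped.

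With the replicate number as a replicate block the differences are the same by construction, at -0.48 downstream, and the smallest exact p with 2 pairs is 0.5. Deviations of libraries with the same number correlated at -0.09 over 23395 contacts. With 2 libraries per cell type and contacts that are not independent, this cannot show whether libraries with the same number were prepared together. limma called 0 contacts with the block, as in each of its alternatives, and counted 102 of 1974 at an unadjusted p under 0.05. Without keratinocyte library 2 that count was 344, in place of 99. The counts of items without overlap were not run with the block, which leaves each item's values as they are.

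The limits are the 2 libraries per cell type, the low correlation of their Z scores and the unknown depth in reads. Contacts are also not independent, because they share fragments. The start of the window had almost no contact listed in all 4 libraries. At its other end, 1 fragment carried a large part of the upstream keratinocyte signal.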
